A study of Homo sapiens with 6 samples.

Results

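FOXM1, B-MYB, the MuvB core subunits LIN9 and LIN54, the repressor factors E2F4, E2F7 and E2F8, the pocket proteins RBL1 and RBL2, and the E2F partner TFDP1 are transcription factors of the cell cycle program. Their mRNA was read here by 31 probe sets, all those of the deposited table whose array annotation gives exactly 1 gene symbol and that symbol is one of these 10 genes. All 31 passed the filter on variable signals, out of 35858 tested probe sets with 1 gene, which cover 15253 genes. RNA came from PANC-1, an established human pancreatic cancer cell line, after 48 h with anlotinib at 5.535 μM (3 samples) or with DMSO, its solvent (3 samples). Anlotinib blocks receptor tyrosine kinases, and the labels give both groups the same serum-containing medium and name no other agent. Each sample was hybridized to 1 Affymetrix 3′ expression array, and each value is a log2 signal, made by the authors with RMA, of a probe set, a group of short probes to 1 transcript region. Nothing in the labels states that the samples came from separate cultures, so p-values measure only the spread between these samples, which may be technical.

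These factors are best known as a switch. In resting cells the MuvB core, which holds LIN9 and LIN54, is joined by RBL2 (p130) or RBL1 (p107), E2F4 or E2F5 and a DP protein such as TFDP1 to form DREAM, a complex that represses cell cycle genes. In proliferating cells MuvB leaves the pocket protein and binds B-MYB, the product of MYBL2, and later FOXM1, and then activates genes of G2 and mitosis. LIN54 is the MuvB subunit that contacts DNA, at the CHR element of mitotic promoters. E2F7 and E2F8 are atypical E2F factors that bind DNA without a DP partner and repress E2F target genes in the later part of the cycle.

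The 6 arrays had medians between 7.71 and 7.77, with a mean Pearson r (over probe sets, not replicates) of 0.998 within either group and 0.978 between groups. The epithelial keratins KRT8, KRT18 and KRT19 marked the cells as labelled, with signals of 12.9 to 14.0 with anlotinib and 13.5 to 14.6 in DMSO. All 6 epithelial markers were lower at a false discovery rate (FDR) under 0.05. The summed linear signal of the 4 leukocyte markers tested was 932.8 to 1017 with anlotinib and 370.5 to 377.7 in DMSO, of which CD68, a lysosomal glycoprotein, made up 82.5% to 84.2% with anlotinib and 53.7% to 59% in DMSO. Of the other leukocyte markers, ITGAM was higher by 0.63 on the log2 scale, at low means of 5.31 with anlotinib and 4.67 in DMSO. CD3E and CD14 had −0.14 and −0.23 and did not pass the FDR (adjusted p = 0.0978 and 0.0743 from limma). PTPRC, the common leukocyte antigen, was not among the tested probe sets. The labels name a single cultured cell line and no leukocytes, and a part of leukocytes in the results below was not tested. Arrays carry no counts, so the number of arrays limits the precision, and in bulk RNA fewer cells in a phase of the cycle cannot be told apart from less mRNA per cell. In its cell cycle assay the paper reports a larger share of PANC-1 cells in G2/M after anlotinib, and a smaller share in G1. A part of these shares in the values below was not tested.

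Promoter windows from 250 bases before to 50 bases after the start, from RefSeq (GRCh38.p14), were used for 8 of the 10 genes, in 12 windows. Those of FOXM1 and E2F8 were not analysed here. Both strands were searched for E2F letters, which are TTCCCGC and its variant TTCGCGC and with a G at the third base TTGCCGC and also TTGGCGC, and for CHR letters, TTTGAA and its variant TTCGAA, and no 2 matches overlapped. E2F letters occurred in 4 of the 12 windows (33.3%), against 13% of all 35116 windows, and CHR letters in 4 (33.3%), against 16.4% of all. The windows of RBL1, E2F7 and MYBL2 are printed 5′ to 3′, with E2F letters in capitals, because RBL1 and MYBL2 had lower signals with anlotinib while E2F7 did not pass the test. That of RBL1 is on the minus strand at chr20:37095948-37096247, that of E2F7 on the minus strand at chr12:77065520-77065819 and that of MYBL2 on the plus strand at chr20:43666864-43667163.
RBL1: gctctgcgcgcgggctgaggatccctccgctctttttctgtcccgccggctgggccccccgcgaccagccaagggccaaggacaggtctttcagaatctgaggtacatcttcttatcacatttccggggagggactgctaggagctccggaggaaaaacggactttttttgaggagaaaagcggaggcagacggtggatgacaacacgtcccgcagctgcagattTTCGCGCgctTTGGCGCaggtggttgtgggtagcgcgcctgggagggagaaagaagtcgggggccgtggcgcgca
E2F7: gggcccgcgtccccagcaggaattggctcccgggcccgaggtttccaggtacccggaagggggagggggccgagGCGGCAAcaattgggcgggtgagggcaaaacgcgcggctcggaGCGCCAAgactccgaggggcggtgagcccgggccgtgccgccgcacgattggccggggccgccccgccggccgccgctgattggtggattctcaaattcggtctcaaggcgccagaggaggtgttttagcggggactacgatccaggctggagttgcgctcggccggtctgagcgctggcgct
MYBL2: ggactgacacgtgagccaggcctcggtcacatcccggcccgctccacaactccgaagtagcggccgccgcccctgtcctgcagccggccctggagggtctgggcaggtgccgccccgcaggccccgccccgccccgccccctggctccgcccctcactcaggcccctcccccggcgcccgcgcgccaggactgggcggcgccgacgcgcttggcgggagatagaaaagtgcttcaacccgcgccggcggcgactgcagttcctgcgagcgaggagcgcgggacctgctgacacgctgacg
RBL1 holds a close pair of E2F matches on the strand of the gene, with first bases at positions −25 and −15 from the start, counted as 0. E2F7 holds 2 on the other strand, at −176 and −133. The window of MYBL2 holds none of the searched letters, which is a statement on these letters only. It does hold TTGGCGG, which differs from the searched TTGGCGC in its last letter. CHR letters lay in both windows of LIN54, which overlap and share the match, in 1 of 3 windows of LIN9 and in 1 of 2 of RBL2, and E2F letters also in 1 window of LIN9 and in that of TFDP1. A match is a description of the sequence, not a site at which binding was measured.

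**Figure D1:**
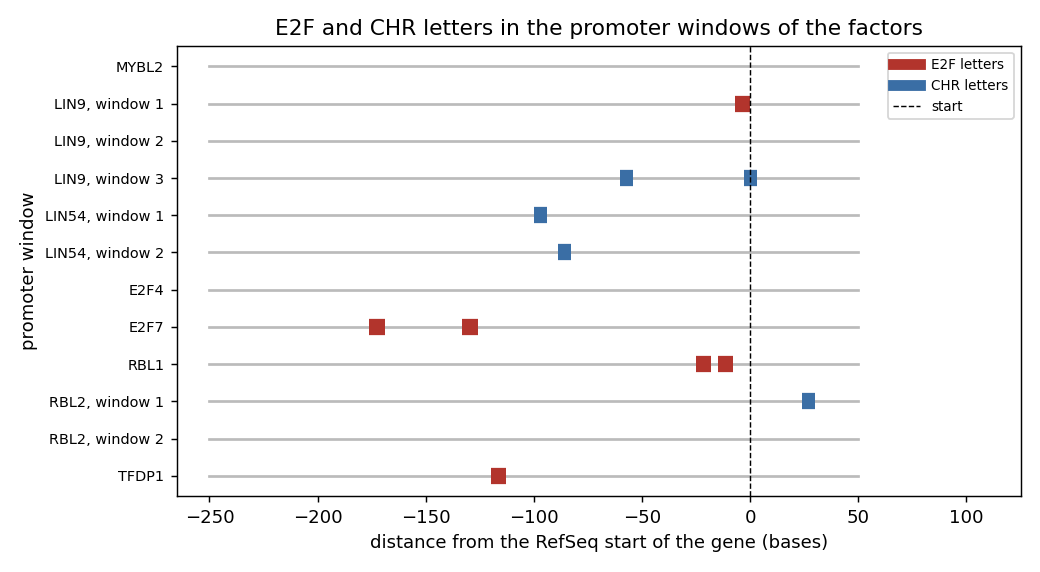
Positions of E2F letters (red) and CHR letters (blue) in the RefSeq promoter windows of 8 genes, with the distance in bases from the start of the gene on the x axis and 1 line per window. RBL1 carries a pair of E2F matches just before the start, at −25 and −15, and the windows of MYBL2 and E2F4 carry no match.

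Anlotinib minus DMSO was fitted with limma, and calls needed both a 2-fold difference and an FDR under 0.05. Among the 31 probe sets 1 was called lower, a probe set of E2F8, and 0 were called higher, against 1.77% lower and 2.33% higher among all tested probe sets with 1 gene. At an unadjusted p under 0.05, with limma, 10 were higher and 14 lower, where 30% and 31.1% of all tested probe sets were. At the FDR alone 13 were lower and 8 higher, or 41.9% and 25.8% of them, against backgrounds of 28.6% lower and 28.3% higher. Every anlotinib array lay below every DMSO array in 14 probe sets and above in 11, where 31.9% and 31.5% of all tested probe sets did so. The median log2 fold change was 0.01 over the 31 probe sets and −0.02 over all tested. At the brightest probe set of each gene, the one with the highest mean signal, MYBL2, E2F8, RBL1 and RBL2 were lower at the FDR, FOXM1 and LIN54 were higher, and LIN9, E2F4, E2F7 and TFDP1 did not pass. For 30 of the 31 probe sets the 95% interval of the difference lay within a 2-fold change in either direction.

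**Figure D2:**
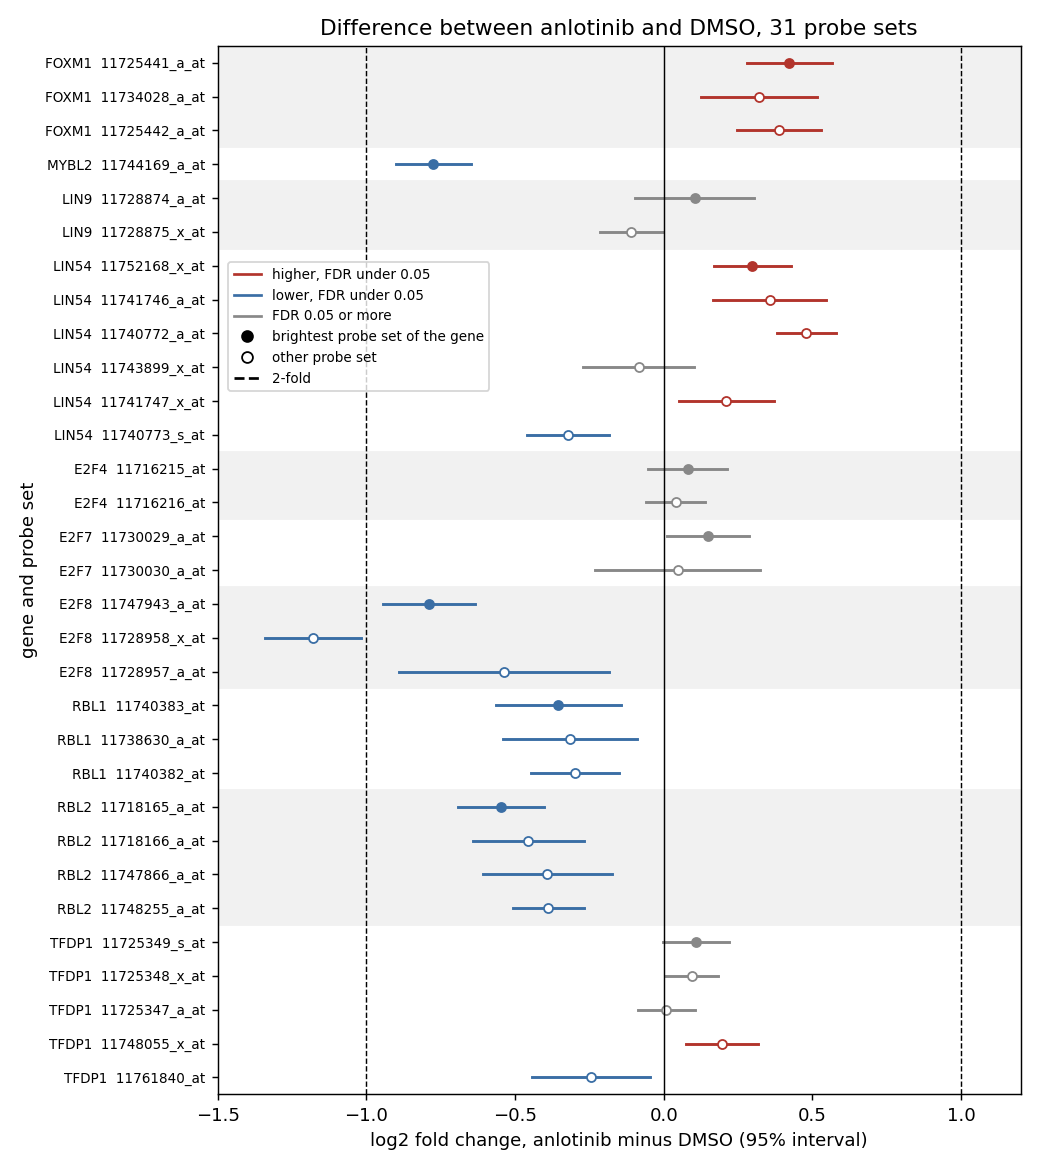
Log2 fold change, anlotinib minus DMSO, of the 31 probe sets with 95% intervals from limma (x axis), 1 row per probe set grouped by gene, filled points for the brightest probe set of a gene. All probe sets of FOXM1 lie above 0 and those of MYBL2, E2F8, RBL1 and RBL2 below 0, and only 1 of E2F8 has its whole interval past the dashed 2-fold line.

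FOXM1, the forkhead activator of genes for G2 and mitosis, had higher mRNA signals with anlotinib at all 3 of its probe sets. At the brightest, 11725441_a_at, the log2 signals were 8.10, 8.004 and 8.10 with anlotinib, against 7.54, 7.72 and 7.68 in DMSO. The groups did not overlap, and the lowest anlotinib array stood 0.28 above the highest DMSO array. The log2 fold change was 0.42 (SE 0.06, 95% interval 0.28 to 0.57, adjusted p = 0.000767 from limma), a 1.34-fold difference. The other probe sets gave 0.39 (SE 0.06) and 0.32 (SE 0.08), also without overlap. Signals of 11725442_a_at were 6.74, 6.87 and 6.73 with anlotinib and 6.47, 6.31 and 6.39 in DMSO, and those of 11734028_a_at were 7.62, 7.74 and 7.52 with anlotinib and 7.35, 7.16 and 7.40 in DMSO. The change at the brightest probe set differed from the others by 0.10 and 0.04 on the log2 scale (exact two-sided permutation test over the arrays, p = 0.5 and 0.7), within the spread of the arrays.

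MYBL2 encodes B-MYB, the partner that turns MuvB into an activator, and its single probe set had lower signals with anlotinib. The values were 9.42, 9.25 and 9.38 with anlotinib, against 10.10, 10.14 and 10.13 in DMSO. All 3 DMSO arrays lay within 0.04 of each other and well above the anlotinib arrays. The log2 fold change was −0.77 (SE 0.05, 95% interval −0.90 to −0.65, adjusted p = 2.24e-05 from limma), or 58.5% of the DMSO signal. Thus the pair of activators that join MuvB in turn differed in direction: the within-array difference of FOXM1 minus MYBL2 was −1.28 ± 0.03 (SD, n = 3) with anlotinib and −2.48 ± 0.08 (SD, n = 3) in DMSO (p = 0.1 in an exact two-sided permutation test, which cannot go lower with 3 against 3). This pair was chosen after its values were seen.

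**Figure D3:**
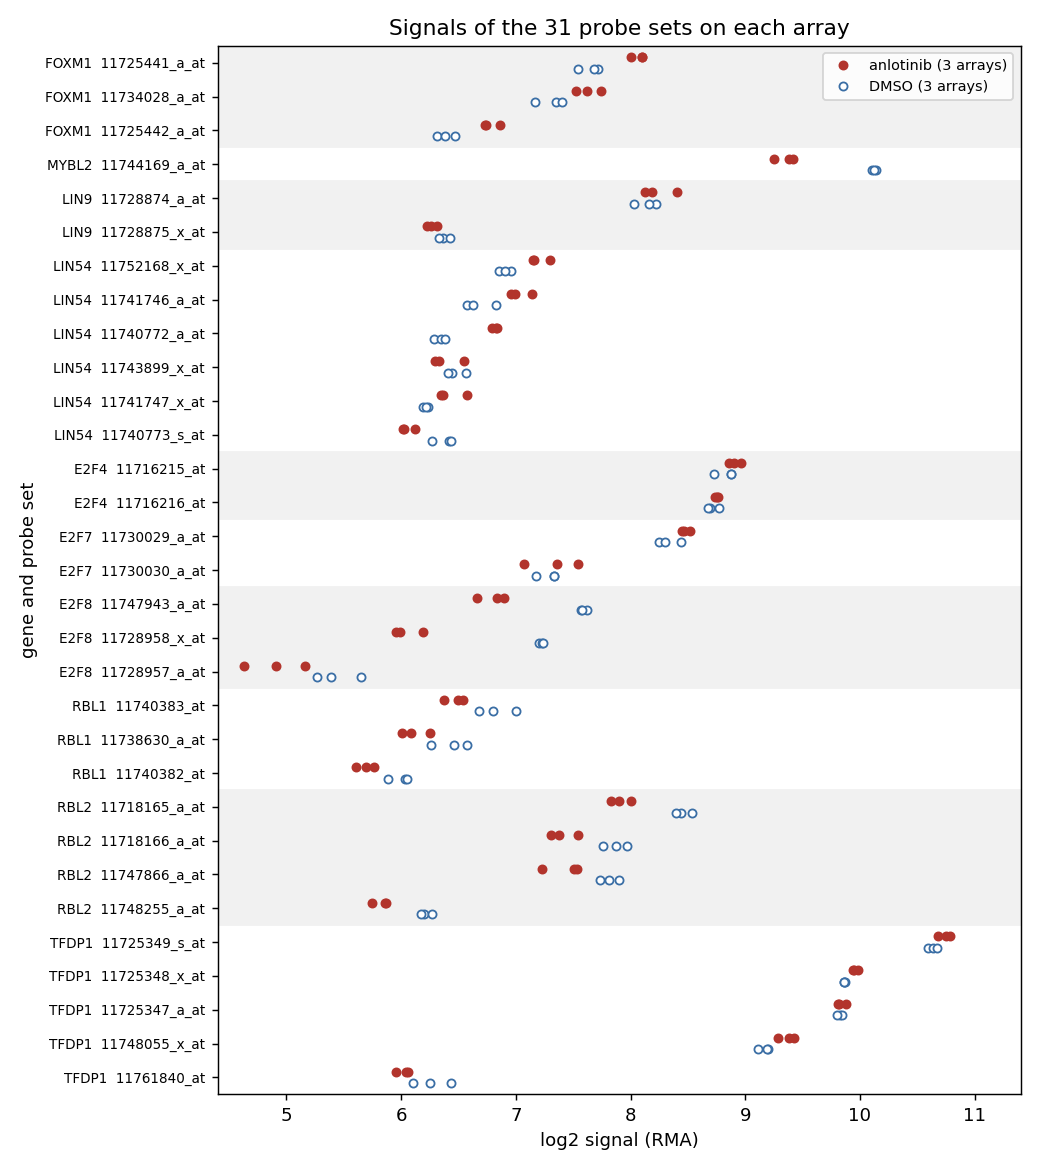
Log2 signals (x axis) of the 31 probe sets on each array, with anlotinib as filled red points and DMSO as open blue points, 3 arrays each, 1 row per probe set. The groups stand apart without overlap for every probe set of FOXM1, MYBL2, E2F8, RBL1 and RBL2, and they overlap for both probe sets of E2F4.

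Of the MuvB core, LIN9, the scaffold subunit, did not pass the test. Its brightest probe set read 8.13, 8.41 and 8.19 with anlotinib, against 8.03, 8.22 and 8.16 in DMSO, with overlapping groups and a log2 fold change of 0.10 (95% interval −0.095 to 0.30, adjusted p = 0.331 from limma). The dimmer 11728875_x_at had −0.11 (95% interval −0.22 to −0.001, adjusted p = 0.0798). LIN54, the DNA-binding subunit, is read by 6 probe sets, which did not move one way. Higher signals were found at 4 of them, with log2 fold changes of 0.21 to 0.48 (adjusted p = 6.94e-05 to 0.0308 from limma). At the brightest, 11752168_x_at, the signals were 7.15, 7.30 and 7.16 with anlotinib, against 6.86, 6.95 and 6.90 in DMSO, which differed by 0.30 on the log2 scale (SE 0.05, adjusted p = 0.0027). The largest difference was at 11740772_a_at, with 6.79, 6.83 and 6.83 with anlotinib and 6.29, 6.35 and 6.38 in DMSO. In contrast, 11740773_s_at was lower, with 6.02, 6.12 and 6.02 with anlotinib and 6.42, 6.43 and 6.27 in DMSO, with a difference of −0.32 on the log2 scale (SE 0.06, adjusted p = 0.00256). The ending _s_at marks, by the naming of the array, probes shared by transcripts of more than 1 gene, and _x_at marks probes that may cross-hybridize. The within-array difference of the brightest minus this probe set was 1.15 ± 0.02 (SD, n = 3) with anlotinib and 0.53 ± 0.10 (SD, n = 3) in DMSO (exact two-sided permutation test, p = 0.1). The remaining probe set, 11743899_x_at, had −0.08 (95% interval −0.27 to 0.10, adjusted p = 0.399). The smallest of the increases, at 11741747_x_at, had an adjusted p of 0.0828, 0.0559 and 0.0728 from limma without DMSO 1, 2 and 3, and of 0.0524 with the arrays centred.

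Among the repressor E2F factors the 2 atypical members differed. E2F8 was the only factor of the 10 with a called probe set. At 11728958_x_at the signals were 5.95, 5.99 and 6.19 with anlotinib, against 7.21, 7.23 and 7.23 in DMSO, and the highest anlotinib array stood 1.01 below the lowest DMSO array. There the log2 fold change was −1.18 (SE 0.07, 95% interval −1.34 to −1.02, adjusted p = 1.06e-05 from limma), to 44.1% of the DMSO signal. Its brightest probe set, 11747943_a_at, read 6.66, 6.84 and 6.90 with anlotinib and 7.56, 7.62 and 7.58 in DMSO, with a difference of −0.79 on the log2 scale (SE 0.07, adjusted p = 5.19e-05), under the 2-fold limit. The third, 11728957_a_at, read 4.63, 5.16 and 4.91 with anlotinib and 5.27, 5.39 and 5.65 in DMSO, with −0.54 (SE 0.15, adjusted p = 0.0181). It is the only one of the 31 whose group mean lay in the lowest 10% of signals in the table (mean signal up to 5.06), and without anlotinib 3 or DMSO 3 its adjusted p was 0.0516 or 0.0563. All 3 probe sets of E2F8 were therefore lower without overlap, by unequal amounts: the change at the brightest and at the called probe set differed by 0.39 (exact two-sided permutation test, p = 0.1). With limma's treat, which tests against a 2-fold change, the called probe set was not called.

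E2F7, the other atypical factor, read 8.47, 8.52 and 8.45 with anlotinib, against 8.25, 8.44 and 8.30 in DMSO, at its brightest probe set. The groups did not overlap, by a margin of 0.009, and the log2 fold change of 0.15 (95% interval 0.01 to 0.29) did not pass the FDR (adjusted p = 0.0655 from limma). It passed without DMSO 2, with 0.21 (adjusted p = 0.0138), with trend and robust settings (adjusted p = 0.0315) and after removal of the dimmest 40% of probe sets (0.0282). The other probe set of E2F7 gave 0.05 with overlapping groups (95% interval −0.23 to 0.32, adjusted p = 0.757). The within-array difference of E2F8 minus E2F7, at the brightest probe sets, was −1.68 ± 0.13 (SD, n = 3) with anlotinib and −0.74 ± 0.07 (SD, n = 3) in DMSO (exact two-sided permutation test, p = 0.1, a pair chosen after its values were seen). E2F4, the typical repressor that enters DREAM, read 8.86, 8.96 and 8.90 with anlotinib, against 8.73, 8.88 and 8.87 in DMSO. Its groups overlapped at both probe sets, with log2 fold changes of 0.08 (95% interval −0.05 to 0.21, adjusted p = 0.263) and 0.04 (95% interval −0.06 to 0.14, adjusted p = 0.448), so that an increase above 0.21 lies outside both intervals.

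The pocket proteins, which carry E2F4 and E2F5 into DREAM and hold back E2F target genes, were lower at all 7 of their probe sets. RBL2 (p130) read 7.83, 8.01 and 7.90 with anlotinib, against 8.44, 8.54 and 8.40 in DMSO, at its brightest probe set, a log2 fold change of −0.55 (SE 0.06, 95% interval −0.69 to −0.40, adjusted p = 0.000221 from limma), or 68.4% of the DMSO signal. The other 3 probe sets of RBL2 gave −0.46, −0.39 and −0.39 (adjusted p = 0.000485 to 0.00836), each without overlap between the groups. RBL1 (p107) read 6.54, 6.37 and 6.50 with anlotinib, against 7.001, 6.80 and 6.68 in DMSO, a log2 fold change of −0.355 (SE 0.09, 95% interval −0.57 to −0.14, adjusted p = 0.0115), or 78.2% of the DMSO signal. Its DMSO arrays were spread over 0.33, and the gap to the highest anlotinib array was 0.14. The other probe sets of RBL1 gave −0.32 (SE 0.10, adjusted p = 0.0253) and −0.30 (SE 0.06, adjusted p = 0.00501). At 11738630_a_at, with −0.32, the highest anlotinib array read 6.25 and the lowest DMSO array 6.26, and the adjusted p was 0.078, 0.0715, 0.0765 and 0.0613 without anlotinib 1, anlotinib 2, DMSO 1 and DMSO 2, and 0.0604 with the replicate number as a block.

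TFDP1 encodes DP-1, the dimer partner of the typical E2F factors, and its 5 probe sets gave small differences in both directions. The brightest, 11725349_s_at, read 10.68, 10.75 and 10.79 with anlotinib, against 10.59, 10.64 and 10.67 in DMSO, a log2 fold change of 0.11 (95% interval −0.001 to 0.22, adjusted p = 0.0849 from limma). It was 0.20 (SE 0.05, adjusted p = 0.0133) at 11748055_x_at, with 9.38, 9.29 and 9.42 with anlotinib and 9.20, 9.19 and 9.11 in DMSO, while 2 others gave 0.10 and 0.01 and did not pass. The dimmest, 11761840_at, read 6.06, 5.95 and 6.05 with anlotinib and 6.25, 6.43 and 6.11 in DMSO, with a difference of −0.24 on the log2 scale (SE 0.08, adjusted p = 0.0417). That decrease did not pass without anlotinib 1, 2 or 3 or DMSO 1 or 2 (adjusted p = 0.0659 to 0.121), with a second quantile normalization (0.0541) or with the replicate number as a block (0.0668). The brightest and 11725348_x_at passed the FDR with trend and robust settings (adjusted p = 0.0157 and 0.0301) and after removal of the dimmest 40% (0.0385 and 0.0256).

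Across members with several probe sets, the brightest was set against each other one in 21 within-array comparisons. In 8 of them the groups did not overlap, a share below the 45% of all 20605 such comparisons over the tested genes. Of the 8, 4 were in LIN54, 2 in TFDP1, 1 in E2F8 and 1 in RBL2, with the smallest exact p of 0.1 in each (0.23 after Benjamini-Hochberg adjustment over 23 comparisons). FOXM1, RBL1, E2F4, E2F7 and LIN9 had none. Among probe sets past the FDR, those of LIN54 and of TFDP1 had both signs, while those of FOXM1, E2F8, RBL1 and RBL2 each had a single sign.

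Other subunits and E2F factors, not among the 10, were read as a list of 11 genes at the brightest probe set. At the FDR 7 were lower and 2 higher, and 1 was called lower and 0 higher (2 higher at an unadjusted p under 0.05, limma), against 29.7% of all genes lower and 25.4% higher at the FDR, and 1.91% called lower and 2.1% called higher. E2F5, the other E2F factor of DREAM, fell by 1.13 on the log2 scale (SE 0.04, adjusted p = 2.17e-06 from limma), with 9.73, 9.75 and 9.76 with anlotinib against 10.82, 10.90 and 10.90 in DMSO. TFDP2, the second DP partner, had −0.72, RBBP4, the histone-binding MuvB subunit, −0.59, and MYBL1, which encodes A-MYB, −0.66. Of the remaining MuvB subunits LIN37 had 0.16 (adjusted p = 0.0152) and LIN52 −0.15 (adjusted p = 0.106). E2F6, a repressor that does not bind pocket proteins, had 0.65 (SE 0.05, adjusted p = 4.92e-05), while the activators E2F1 and E2F2 had −0.29 and −0.87 and E2F3 had −0.05 (adjusted p = 0.39). The median of the list was −0.29, beside −0.04 over all genes. Cyclins, kinases and inhibitors that set the switch between DREAM and the activator complexes were read as 12 genes, of which 6 were lower and 4 higher at the FDR. CKS1B, a small subunit of CDK complexes, fell by 1.03 on the log2 scale (adjusted p = 4.7e-06 from limma) and was the only one called lower, with 0 called higher. The paper also reports CKS1B as down-regulated. At an unadjusted p under 0.05 with limma 4 of the 12 were higher, where 27% of all genes were. CCNE1 had 0.88, CCND1 0.41, and the CDK inhibitors CDKN1A and CDKN1B −0.43 and −0.45.

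The genes that B-MYB, MuvB and FOXM1 are known to activate were lower for the most part while FOXM1 itself was higher. Of 32 mitotic target genes 14 were called lower (43.8%) and 0 higher, against 1.91% of all genes called lower and 2.1% called higher. At the FDR alone, as at an unadjusted p under 0.05 with limma, 28 were lower (87.5%) and 2 higher (6.25%). Of all genes 29.7% were lower and 25.4% higher at the FDR, and 32.3% and 27% at the unadjusted p. The list of mitotic targets was chosen with earlier results of these data known. The paper reports CDC25C, PLK1, CDK1 and TOP2A, which are in it, as down-regulated. The share is therefore a description and not a test of the list. The median log2 fold change was −0.93, beside −0.04 over all genes. The largest decreases called were those of KIF2C, a kinesin that takes apart microtubules, at −1.88 (SE 0.04), CDC25C, the phosphatase that activates CDK1, at −1.79 (SE 0.04), NEK2, a centrosome kinase, at −1.78 (SE 0.07), and AURKB, the kinase of the chromosomal passenger complex, at −1.76 (SE 0.04), with adjusted p of 5.8e-07 to 2.17e-06 from limma. CDC25C read 8.44, 8.42 and 8.45 with anlotinib, against 10.22, 10.25 and 10.22 in DMSO. Both genes that were higher, CKS2, a CDK subunit, and CDC20, an activator of the anaphase-promoting complex, had 0.65 (SE 0.04) and 0.29 (SE 0.04), while TPX2, a spindle factor, had −0.004 (adjusted p = 0.94) and GTSE1 −0.15 (adjusted p = 0.158). CCNB1, the mitotic cyclin, had only −0.12 (SE 0.04, adjusted p = 0.0349). Promoter windows were found for 27 of these 32 genes, 35 windows in all. CHR letters occurred in 62.9% of them, against 16.4% of all windows, and E2F letters in 28.6%, against 13%.

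Genes of the G1/S transition, the known targets of E2F4, E2F7 and E2F8, had changes in both directions. Of 27 tested 14 were lower (51.9%) and 5 higher (18.5%) at the FDR, against 29.7% and 25.4% of all genes. Only 1 was called lower (3.7%) and 0 higher, against 1.91% and 2.1% of all genes. At an unadjusted p under 0.05 with limma 6 were higher, where 27% of all genes were. The median log2 fold change was −0.13, beside −0.04 over all genes. PRIM1, the DNA primase subunit, fell by 1.18 on the log2 scale (SE 0.06, adjusted p = 6.46e-06 from limma), with 9.21, 9.30 and 9.36 with anlotinib against 10.56, 10.45 and 10.40 in DMSO. CDC45, which activates the replicative helicase, had −0.87 and RRM2, a ribonucleotide reductase subunit, −0.84, whereas CDC25A, the phosphatase of CDK2, had 0.63 and CDC6, a loader of the MCM helicase, 0.29. E2F letters occurred in 67.6% of the 37 windows of this list, which cover 24 of its 29 genes, and CHR letters in 8.11%. The difference between both lists was not tested, and they share arrays, so that their values stand side by side as a description.

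**Figure D4:**
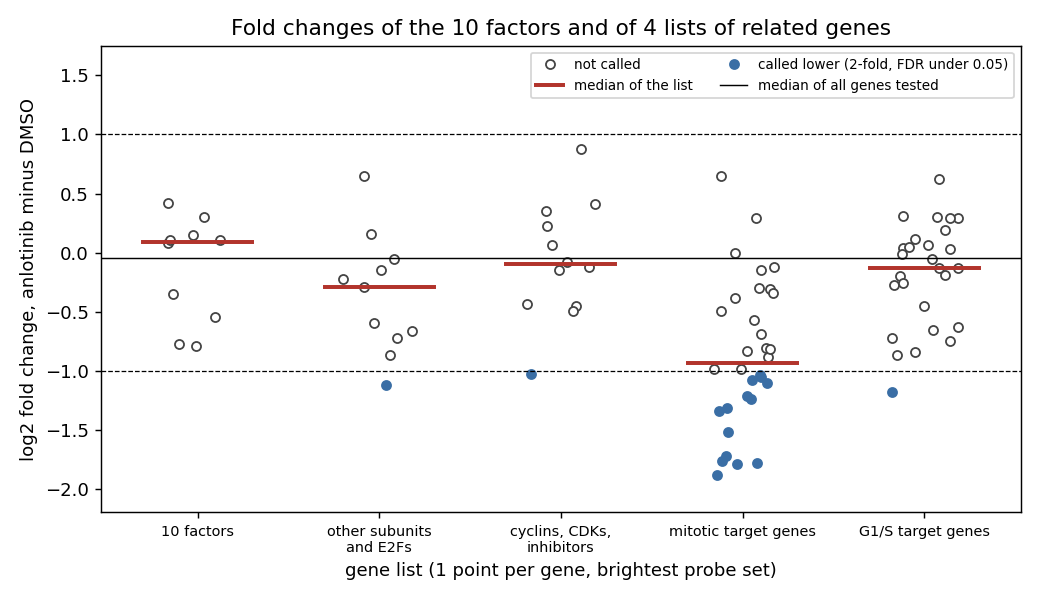
Log2 fold change, anlotinib minus DMSO (y axis), of the 10 factors and of 4 lists of related genes, 1 point per gene at its brightest probe set, with called genes filled, a red bar at the median of each list and a thin line at the median of all genes, −0.04. The mitotic target genes have 14 of 32 points filled and a median of −0.93, while none of the 10 factors is called at the brightest probe set.

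By the Euclidean distance over the 6 arrays, with each probe set centred on its DMSO mean, the genes nearest to FOXM1 among all others were PES1 (distance 0.07), RDH10 (0.07), RAPGEFL1 (0.07), ZNF30 (0.07) and TOR4A (0.08). Their log2 fold changes were 0.39 to 0.45, near that of FOXM1 because the genes were chosen by a distance over these same values.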

How the data were processed

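RNA of PANC-1 cells, 3 samples with anlotinib and 3 with DMSO, grouped by the sample titles, was hybridized to Affymetrix 3′ arrays. The deposited log2 values come from RMA, run by the authors (background adjustment, normalization between arrays, summary per probe set). Their methods filter low signals, and none was filtered again here. The table holds 39219 probe sets. Of these 73 control probe sets and 83 with a CV above 25% within a group, on the linear scale, were set aside, which leaves 39063 for limma 3.58.1 in R 4.3.3 (lmFit, eBayes), adjusted by Benjamini-Hochberg over all of them. The limits on CV, fold and FDR are those of the paper's methods, which do not state the scale of the CV. The paper reports 39219 probe sets left by its own filters, as many as the table holds. The CV filter used here may thus come on top of theirs. Symbols were updated by entrez identifier, which matched for 35843 of 35858 probe sets with 1 gene. Probe sets with several genes (1429) or none (1776) entered no gene count.

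Members and lists were chosen with earlier results of these data known. Named are all member probe sets, called genes of each list with the largest change and the 5 genes nearest to FOXM1. Other genes, the counts at the FDR alone and both pairs of members were chosen after their values were seen. Alternatives left out the CV filter or took it on log2 values, and used the lowest 40% of signals left out, a second quantile normalization, centring, a 1.5-fold limit, treat, trend and robust settings, a replicate block, no cross-hybridizing probe sets, other choices of probe set per gene and each array left out. The procedure was tested on simulated data.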

Additional observations from a re-analysis of the deposited data

How the results depend on the processing

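No array left out in turn changed a count of calls by more than 1.5 times. Without 1 array, 1 member probe set was called lower each time, 11 to 12 were lower and 7 to 8 higher at the FDR, and 13 to 14 mitotic targets were called lower. With the lowest 40% of signals left out, 0 member probe sets were called lower with limma, and 5 were lower and 7 higher at the FDR. This setting removes the called probe set of E2F8, all probe sets of RBL1 and all but the brightest of LIN54. The smaller count of lower probe sets thus comes with fewer probe sets read, and RBL1 was not read at all. Without cross-hybridizing probe sets, which also removes the called probe set of E2F8, 0 were called lower, and 11 were lower and 5 higher at the FDR. With the 1.5-fold limit 3 member probe sets and 2 members were called lower, as were 5 partners, 7 G1/S targets and 1176 genes, with 1124 genes called higher. With treat 0 member probe sets, 0 partners, 0 G1/S targets, 9 mitotic targets and 113 genes were called lower and 163 genes higher. With the median of the probe sets of a gene 1 member was called lower, E2F8, and with the probe set of smallest p also 1, with 2 G1/S targets lower and 487 genes higher. Under both rules E2F8 had a log2 fold change of −1.18, the value of its called probe set, which may cross-hybridize. These rules are therefore not separate readings of E2F8. Its other probe sets had −0.79 and −0.54, under the 2-fold limit. The replicate number as a block left 1 member probe set called lower and 14 mitotic targets, and gave 11 lower and 8 higher at the FDR. Deviations of same-numbered samples correlated with r of 0.167, 0.00625 and −0.145 across probe sets. The labels do not state what the number stands for. With so few arrays these values cannot tell whether same-numbered samples share more than a number.

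Signs turned only for values near 0. TFDP1 at 11725347_a_at had −0.0182 with a second quantile normalization, −0.0045 with centring and −0.0126 to 0.0225 with 1 array left out, and E2F7 at 11730030_a_at had −0.0619 to 0.175. Of the differences between probe sets, those of FOXM1 ran from −0.0599 to 0.1117 (11725442_a_at), LIN54 from −0.1248 to 0.0181 (11741746_a_at), E2F7 from −0.0125 to 0.2158, RBL1 from −0.1293 to 0.0148 (11738630_a_at) and −0.1586 to 0.0828 (11740382_at), and TFDP1 from −0.017 to 0.0577 (11725348_x_at).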
